A study of Mus musculus with 9 samples.

Results

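Cytochrome c oxidase, complex IV of the respiratory chain, was followed at the RNA level in mouse bone marrow-derived macrophages (BMDMs) through 10 genes. These were the 3 subunits encoded by mitochondrial DNA (mt-Co1, mt-Co2 and mt-Co3), 5 nuclear subunits (Cox4i1, Cox5a, Cox6b1, Cox7a2 and Cox7c), Ndufa4 and its paralog AA467197. They were found by Ensembl identifier and are 10 of the 55655 rows of each expression table. The set was selected on function together with FPKM values of these same libraries that were already known, so the values of the 10 genes are given as a description and without a test.

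The cells came from the femur and tibia of wild type C57BL/6 mice aged 6 to 8 weeks, and all 3 groups were first grown for 7 days in medium holding M-CSF, the macrophage growth factor, at 10 ng/mL. M0 macrophages were neither polarized nor irradiated. M1 macrophages were polarized with lipopolysaccharide (LPS) and interferon-γ (IFN-γ), and the M1 + PBM group was also irradiated with a near-infrared laser (photobiomodulation, PBM) from the time these were added. The methods place RNA collection of the M1 and M1 + PBM groups at 12 hours and give no time for M0. Each group had 3 libraries, and the unit throughout is FPKM, in which fragments are normalized for transcript length and library depth, so levels of different genes are compared per length. The labels do not say whether replicates were separate cultures or animals, so any p-value measures only the spread between these libraries.

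Complex IV takes electrons from cytochrome c and passes them to oxygen while pumping protons across the inner mitochondrial membrane. Its catalytic core is encoded by mitochondrial DNA and the smaller subunits around it by nuclear genes, and it is widely proposed as an absorber of the red and near-infrared light used in PBM. NDUFA4 was first described with complex I and is now placed in complex IV. AA467197 (also Nmes1, the mouse counterpart of human C15orf48) encodes a related small protein that is known to be induced by inflammatory stimuli and to replace NDUFA4 in the complex, and its transcript also carries the microRNA miR-147.

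Sequences are shown first for the members whose values depend on which copy of a sequence a fragment was given to. Ndufa4 lies on chromosome 6 (chr6:11900292-11907497, minus strand) and AA467197 on chromosome 2 (chr2:122636986-122641191, plus strand), both in GRCm38 and matched by Ensembl identifier to GENCODE M21. Their coding sequences, of 246 and 249 bases without the stop codon, were identical at 122 of 237 aligned positions (51.5%), and the longest identical run was 11 bases. The most alike stretch of 60 bases within a single exon of each is printed below, with the 37 identical positions in lower case and the differing ones in capitals. It spans chr2:122639217-122639276 in exon 4 of 5 of AA467197 and chr6:11905202-11905261 in exon 3 of 4 of Ndufa4.
AA467197: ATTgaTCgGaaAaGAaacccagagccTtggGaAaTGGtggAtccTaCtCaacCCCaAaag
Ndufa4: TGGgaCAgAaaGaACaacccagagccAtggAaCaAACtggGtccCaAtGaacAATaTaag
No other transcript in GENCODE M21 matched either gene at 90% identity or more over at least 150 bases, so no near-identical copy was found that could share fragments with either.

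The mitochondrial members differed in this respect. mt-Co2 has a nuclear copy, Gm28661, identical over 681 bases, and mt-Co3 has one, Gm28437, identical over 783 bases. The copies carried 100.4% to 100.5% and 99.95% to 100.1% of the FPKM of their mitochondrial gene in the 9 libraries, so the row of the gene and the row of its copy held nearly the same value in every library. For mt-Co1 the copy Gm29216 had 1 mismatch in 483 aligned bases and carried 31.2% to 37.6% of the FPKM of mt-Co1. The 29 bases around that mismatch, shown in capitals, read as follows at chrM:6390-6418 (plus strand) and chr1:24616160-24616188 (minus strand) of GRCm38.
mt-Co1: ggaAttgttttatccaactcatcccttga
Gm29216: ggaTttgttttatccaactcatcccttga
Levels of the 3 mitochondrial members relative to each other are therefore uncertain. For M1 against M0 the log2 difference of mt-Co1 was -0.37 alone and -0.35 when summed with its copy, a step chosen after seeing the data. For mt-Co2 (-0.64) and mt-Co3 (-0.74) such a sum scales every library alike and checks nothing.

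The last sequence is that of miR-147-5p, which lies within the 3′ untranslated region of AA467197. Its mature sequence in RefSeq (GRCm38.p6) is printed with its seed, bases 2 to 8, in capitals and lies at chr2:122640814-122640837 on the plus strand.
miR-147-5p: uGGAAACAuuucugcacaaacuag
The tables hold a row for the Mir147 gene. Its FPKM was 1.99, 0.168 and 0.0895 in the 3 M0 libraries, 0.0786 to 0.0999 in M1 and 0.0735 to 0.0871 in M1 + PBM. The row for the microRNA did not follow the row for the gene that holds it, and these libraries were not made to capture mature microRNAs.

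Before the results, the libraries themselves were compared. Depth, estimated from the steps between low FPKM values, was 30880000 to 41760000 fragments per library. The macrophage marker genes were present in all 9 libraries, and Adgre1 (F4/80) lay between 299.2 and 864.4. Of 8 neutrophil markers, S100a9 and Ly6g were at 0 throughout, and S100a8 and Camp were not near 0 in every library. Dendritic markers summed to at most 0.873. M0 replicate 3 stood apart, with 77.6 for Acod1, an M1 marker, against 1.54 and 0.897 in the other M0 libraries, and 122.8 for Col1a1, a collagen gene of stromal cells, against 4.44 and 3.44. M1 replicate 2 was the only library with albumin (Alb, 9.01, and 0 in the other 8). In bulk RNA, a change in the number of cells of a type and a change in RNA per cell cannot be told apart.

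AA467197 was the member that separated the groups most. Its FPKM was 0.441, 0.104 and 0.559 in M0 replicates 1 to 3, 56.2, 52.6 and 75.3 in M1, and 30.5, 31.8 and 30.01 in M1 + PBM. No value was shared between any pair of groups, and each M1 + PBM library lay below the lowest M1 library. The means were 0.368 ± 0.236, 61.4 ± 12.2 and 30.8 ± 0.918 (SD, n = 3 each), and the ratio of the means was 166.9 for M1 over M0 and 0.501 for M1 + PBM over M1. M0 values rested on few fragments, with upper estimates from the longest transcript of 10.8, 2.8 and 15.3 per library, against 829.9 to 1871.2 in the other libraries. On the log2(FPKM + 1) scale M1 exceeded M0 by 5.51, or by 7.19 with a pseudocount of 0.1, and without M0 replicate 3 the difference was 5.61.

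For M1 + PBM against M1, AA467197 had a difference of -0.96 on the log2 scale (standard error 0.15). Among replicates of the same number the difference was -0.86, -0.71 and -1.30. As every M1 + PBM library lay below every M1 library, any pairing of them would give downward differences. Its size lay close to the log2 change of 1 that the study required in either direction, short of it on the deposited values and past it at -1.04 with median-of-ratios scaling. The estimate lay between -1.06 and -0.80 when single libraries were left out, being -0.80 without M1 replicate 3, whose value was the highest of all. It was -1.06 without M1 replicate 2, the library with albumin, and -1.01 without M1 replicate 1. The M1 markers moved alongside it. All 6 of them were higher in every M1 library than in every M0 library, as were 15.6% of all genes compared. With PBM 5 of 6 had a lower mean log2 level and 4 of 6 were lower without overlap, against 2.52% of all genes tested. Their median log2 fold change was -0.67. In limma 3 of 6 had an unadjusted p of at most 0.05, against 4.44% of all genes tested. With a log2 change of at least 1 required as well, 2 of 6 were called, against 0.261%. None had an adjusted p under 0.05 (lowest 0.900, limma with Benjamini-Hochberg adjustment). The paper had already reported Il6 and Nos2 as reduced by PBM from these same libraries. Nos2, the inducible nitric oxide synthase, was 290.0, 112.1 and 283.6 in M1 and 88.1, 88.8 and 65.9 in M1 + PBM. The neutrophil markers S100a8 and Camp had the same order of group means. S100a8 was 1.13, 2.11 and 1.29 in M0, 16.7, 6.90 and 27.2 in M1, and 4.94, 6.94 and 14.5 in M1 + PBM. Camp was 0.176 to 0.381, 0.767 to 2.80 and 0.387 to 2.44. The sum of all 8 neutrophil markers was 1.44 to 2.44 in M0, 8.94 to 28.1 in M1 and 6.44 to 15.05 in M1 + PBM, so M1 and M1 + PBM overlapped. The part of either marker list in the level of AA467197 was not tested.

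**Figure D1:**
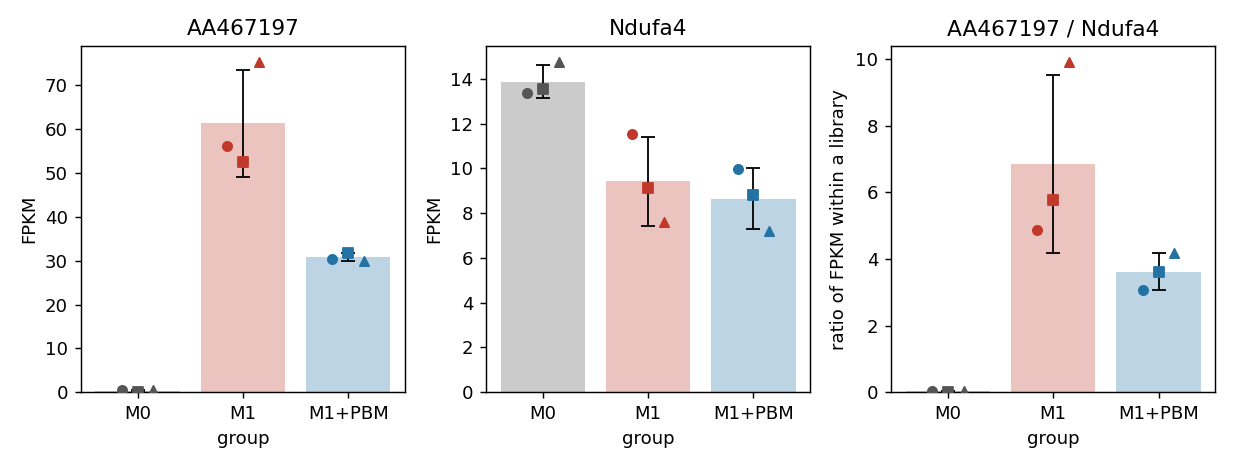
FPKM of AA467197 (left) and Ndufa4 (centre) and their ratio within each library (right) in M0, M1 and M1 + PBM macrophages. Bars are means, error bars are SD over 3 libraries and symbols are single libraries (circle, square and triangle for replicates 1, 2 and 3); AA467197 was near 0 in M0, highest in M1 and lower in all 3 M1 + PBM libraries, while Ndufa4 was highest in M0.

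Ndufa4 went the other way between M0 and M1. It stood at 13.4, 13.5 and 14.7 in M0, 11.5, 9.10 and 7.60 in M1, and 9.96, 8.80 and 7.20 in M1 + PBM. Every M1 library lay below every M0 library, while M1 and M1 + PBM overlapped. The M1 mean was 0.679 of the M0 mean, a log2 difference of -0.53, and with median-of-ratios scaling this shrank to -0.066. With PBM the log2 fold change was -0.10 (standard error 0.18), and it came to 0.040 with M1 replicate 1 left out and to 0.0095 with M1 + PBM replicate 3 left out, so its direction rested on single libraries.

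The balance between the paralogs does not depend on how a library is scaled. The ratio of AA467197 to Ndufa4 was 0.0330, 0.00767 and 0.0379 in M0, 4.87, 5.78 and 9.90 in M1, and 3.06, 3.61 and 4.17 in M1 + PBM. AA467197 thus went from the rarer to the more abundant transcript of the pair in all 6 polarized libraries, and the M1 and M1 + PBM ratios did not overlap. As a share of the pair it made up 0.761% to 3.66% in M0, 83.0% to 90.8% in M1 and 75.4% to 80.6% in M1 + PBM. The summed FPKM of the pair was 13.6 to 15.3 in M0, 61.7 to 82.9 in M1 and 37.2 to 40.6 in M1 + PBM. Against the summed FPKM of the 5 nuclear subunits, AA467197 came to 0.0377% to 0.180% in M0, 20.0% to 28.9% in M1 and 11.2% to 12.3% in M1 + PBM.

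The mitochondrial members were the most abundant and also the most variable. mt-Co1, which holds the oxygen-binding haem and copper centre, was 2633, 2590 and 1957 in M0, 2060, 2368 and 1261 in M1, and 2068, 2126 and 1407 in M1 + PBM. mt-Co2, which receives electrons from cytochrome c, was 376.2, 385.0 and 276.2 in M0, 238.4, 298.4 and 147.2 in M1, and 249.4, 275.7 and 188.8 in M1 + PBM. mt-Co3, a structural core subunit, was 947.1, 934.3 and 622.2 in M0, 576.2, 659.5 and 311.8 in M1, and 648.5, 613.4 and 359.7 in M1 + PBM. Replicate 3 was the lowest of its group for all 3 genes in all 3 groups, and the M0 and M1 ranges overlapped for each gene. Without M1 replicate 3 the log2 differences between M1 and M0 came to -0.10 for mt-Co1, -0.36 for mt-Co2 and -0.41 for mt-Co3. With median-of-ratios scaling they were 0.13, -0.14 and -0.23, so that of mt-Co1 changed sign.

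With PBM the 3 mitochondrial members differed from M1 by less than the spread between replicates. The log2 fold changes were 0.0026 for mt-Co1 (standard error 0.28), 0.10 for mt-Co2 (0.28) and 0.09 for mt-Co3 (0.35). These standard errors come from the fit that leaves the replicate number out. Replicates 1 and 3 gave positive differences and replicate 2 negative ones for each of the 3 genes, for example 0.06, 0.36 and -0.11 for mt-Co2 in replicates 1, 3 and 2. The direction rested on single libraries, since the median over the 3 genes was 0.09 with all libraries, -0.24 without M1 replicate 3, -0.064 and -0.024 without M1 + PBM replicates 1 and 2, and 0.30 without M1 replicate 2. With median-of-ratios scaling mt-Co1 was at -0.078.

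**Figure D2:**
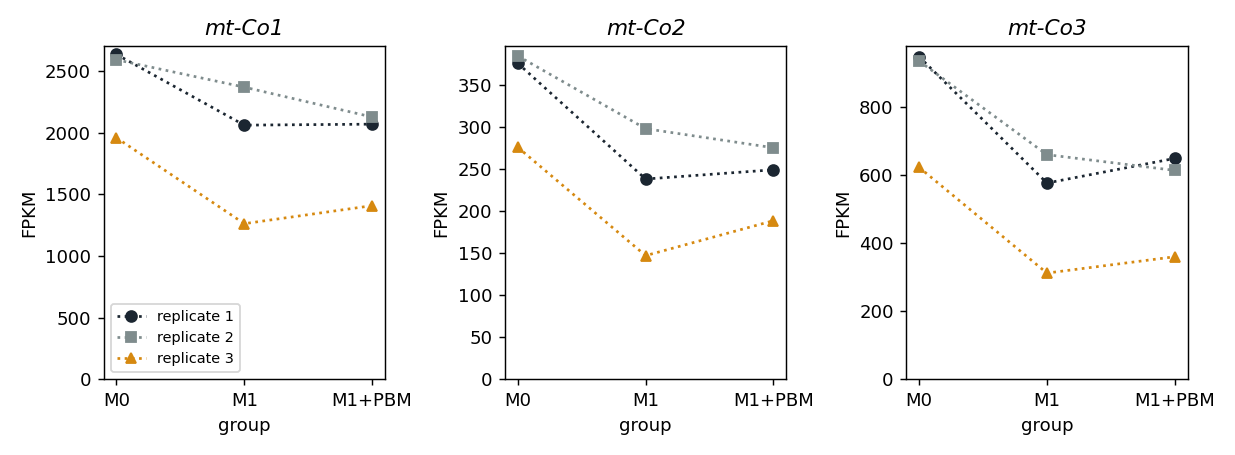
FPKM of mt-Co1, mt-Co2 and mt-Co3 in M0, M1 and M1 + PBM libraries, with dotted lines joining libraries of the same replicate number across groups. Replicate 3 was the lowest in every group for each gene, and the lines run nearly level or in different directions between M1 and M1 + PBM.

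The 10 other subunits encoded by mitochondrial DNA gave a reference for these genes. Between M0 and M1 all 10 had a lower mean, 6 of them without overlap (a pattern shown by 50.6% of all genes compared), with a median log2 difference of -1.22, against -0.64 over the 3 complex IV genes. Over the 13915 genes compared, the median log2 difference was -0.34 and 72.6% were lower in M1, so a lower value in M1 was the common case on this scale. The sum of the 3 complex IV genes divided by that of the other 10 was 2.16 to 2.54 in M0, 3.14 to 4.21 in M1 and 3.28 to 3.78 in M1 + PBM, so the M0 libraries lay below all others. This ratio was taken within a library and does not depend on scaling, though the copies described above enter it unevenly. Among the 10, mt-Nd1, a complex I subunit, had means of 293.7 ± 32.3 in M0 and 144.3 ± 70.6 in M1 (SD, n = 3 each), and mt-Cytb, of complex III, had 260.5 and 103.7. mt-Nd3 was the least abundant at 35.1 and 13.0. With PBM 9 of the 10 had a positive and 1 a negative log2 fold change (65.6% of all genes tested were positive), with a median of 0.11, although only 6 of the 10 had a higher mean FPKM. Left out singly, M1 replicate 3 gave -0.29, M1 + PBM replicate 2 gave -0.037 and M1 replicate 2 gave 0.47, so its direction and size rested on single libraries. None of the 10 had an unadjusted p of 0.05 or less, with or without the replicate number as a block.

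The 5 nuclear subunits were steadier. Cox5a, a regulatory subunit on the matrix side, was 18.3, 18.4 and 24.8 in M0, 28.0, 28.3 and 25.8 in M1, and 32.2, 31.7 and 26.9 in M1 + PBM. It was the only one of the 5 that lay higher in every M1 library than in every M0 library, although the margin over M0 replicate 3 was small and was lost when its processed copy Gm11633 was added to it (26.44 in M0 replicate 3 against 25.95 in M1 replicate 3). The log2 difference was 0.41, it was 0.55 without M0 replicate 3, and it was 0.22 with the copy added (94.1% identical over 238 bases, 1.66 to 5.15 in M0 and 0.176 to 0.629 in M1).

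Cox6b1, which faces the intermembrane space, was 108.3, 99.9 and 114.2 in M0 and 73.1, 96.3 and 93.8 in M1, with no overlap. Cox7c, a small membrane subunit, was 47.3, 50.4 and 61.2 in M0 and 44.4, 46.5 and 41.9 in M1, also with no overlap. Cox4i1, the ubiquitous isoform of the subunit through which ATP acts on the enzyme, was 88.1, 75.9 and 73.1 in M0 and 84.3, 58.9 and 65.8 in M1, and the groups overlapped. Cox7a2, another small membrane subunit, was 31.2 to 37.7 in M0 and 32.9 to 35.8 in M1. Cox4i1 shares 154 bases with Emc8 on the opposite strand, whose FPKM came to 3.05% to 12.1% of that of Cox4i1. Leaving out M0 replicate 3 changed the log2 difference of Cox7c from -0.25 to -0.14, and leaving out M1 replicate 1 that of Cox6b1 from -0.30 to -0.17. Leaving out M1 replicate 2, the library with albumin, changed that of Cox4i1 to -0.081, and it was -0.34 without M1 replicate 1. Directions between M0 and M1 depended on scaling. Relative to M0, the log2 differences were -0.30 for Cox6b1, -0.25 for Cox7c, -0.19 for Cox4i1 and -0.0084 for Cox7a2 on the deposited values, and 0.20, 0.25, 0.31 and 0.48 with median-of-ratios scaling, which moved the median of all genes from -0.34 to 0.04.

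**Figure D3:**
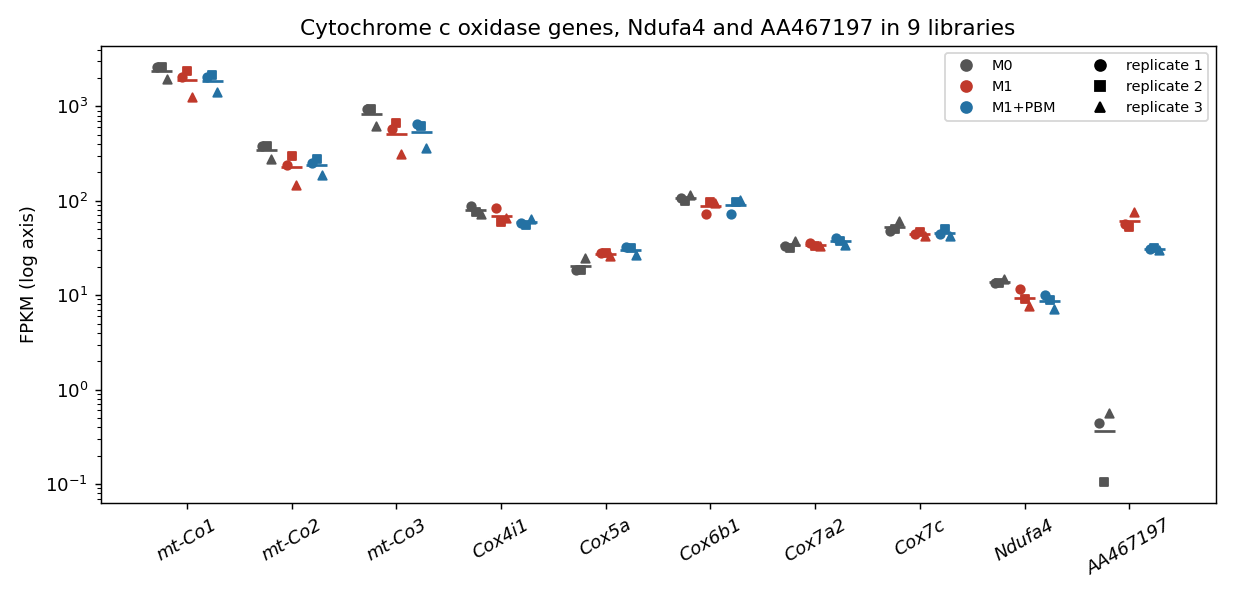
FPKM of the 10 genes in the 9 libraries on a log axis, with M0 in grey, M1 in red, M1 + PBM in blue, symbols for replicates and short lines for group means. AA467197 moves from the lowest of the 10 in M0 into the range of the nuclear subunits in M1, while the other 9 keep levels of the same order in all groups.

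Counted over the 10 members, AA467197 and Cox5a (the latter only without its copy) were higher in every M1 library than in every M0 library, against 15.6% of the 13915 genes compared, and Cox6b1, Cox7c and Ndufa4 were lower in every one, against 50.6%. The M0 libraries were deposited in a table of their own, so no test was run on M0 against M1. In M0 the order of mean FPKM was mt-Co1, mt-Co3, mt-Co2, Cox6b1, Cox4i1, Cox7c, Cox7a2, Cox5a, Ndufa4 and AA467197, and no neighbours in this order overlapped. In M1, AA467197 stood in place 6 of 10 between Cox4i1 and Cox7c. It overlapped Cox4i1, as Cox4i1 did Cox6b1. In M1 + PBM it stood in place 8, overlapping Cox5a, and no other neighbours overlapped.

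**Figure D4:**
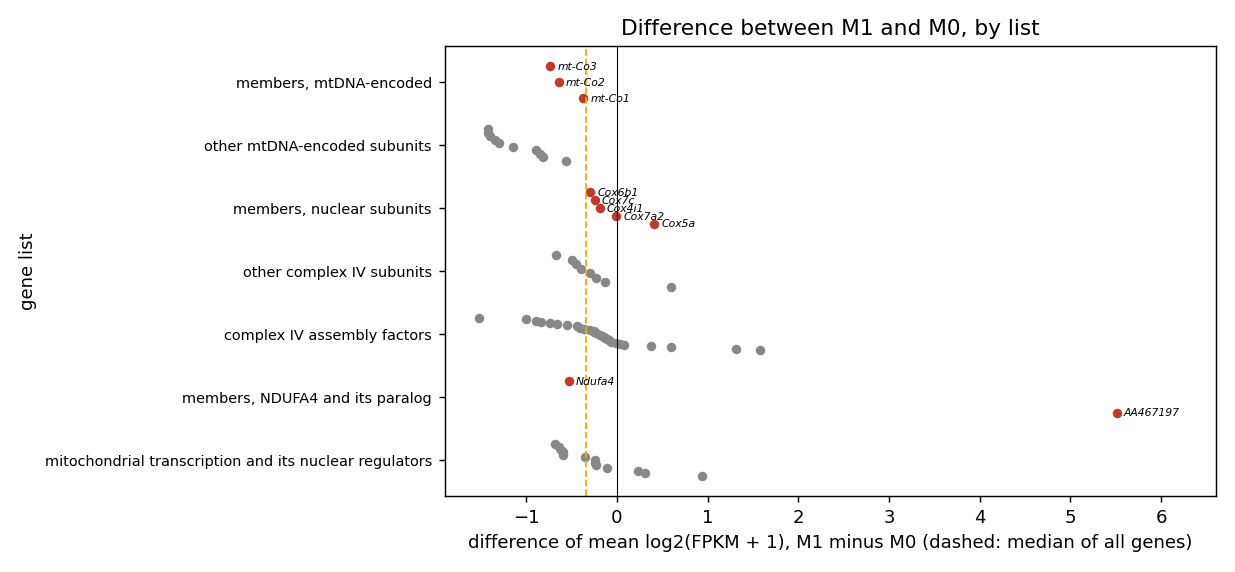
Difference of mean log2(FPKM + 1) between M1 and M0 for the 10 genes (red) and for related gene lists (grey), 1 point per gene with an FPKM of at least 1 in 3 or more of the 9 libraries, with the median of all genes as a dashed line at -0.34. The other mitochondrially encoded genes lie to the left of that line, and AA467197 lies alone at 5.51.

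With PBM, Cox5a (log2 fold change 0.14, standard error 0.11) and Cox7a2 (0.14, standard error 0.10) had the highest estimates of the nuclear subunits. Both were higher with PBM in all 3 replicate pairs, although the ranges of the groups overlapped. Cox4i1, Ndufa4 and AA467197 were lower in all 3 pairs. The share of all genes with 1 direction in all 3 pairs was not counted, so nothing is read from this. With median-of-ratios scaling the estimates of Cox5a and Cox7a2 both shrank to 0.060. Cox7a2 was 40.8, 37.3 and 34.4 with PBM and 35.8, 33.0 and 32.9 without. Cox7c (44.9, 49.9 and 41.9 with PBM) and Cox6b1 (71.7, 96.2 and 101.4) had log2 fold changes of 0.04 and 0.03. Cox4i1 was 58.5, 55.9 and 64.4 with PBM, a log2 fold change of -0.21 (standard error 0.15) that came to -0.064 without M1 replicate 1. The median over the 5 nuclear subunits was 0.04, and the median over all 12238 genes tested was 0.06, with 65.6% of genes above 0. With median-of-ratios scaling these medians were -0.039 and -0.0056, and Cox6b1 and Cox7c also turned negative (-0.052 and -0.039). The median of the 5 was -0.027 without M1 + PBM replicate 2.

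The study required an unadjusted p no higher than 0.05 together with a log2 change of 1 or more in either direction, and on these terms limma called 0.261% of the 12238 genes, 0.237% as lower and 0.0245% as higher with PBM. None of the 10 members was among these 32 genes. The paper's own list at these thresholds was longer and mostly upregulated, unlike the calls here, and its methods name no model for it. Its text names none of the members in that list. An unadjusted p of at most 0.05 alone was met by 4.44% of genes, and 0.00817%, a single gene, had a Benjamini-Hochberg adjusted p under 0.05. The groups did not overlap for 2.52% of genes in the lower direction, AA467197 among them, and for 8.51% in the higher direction, which included none of the members. As the members were chosen with these values known, nothing is read from these counts.

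The remaining genes of the complex were not members and could be tested. Of 14 other subunits or tissue isoforms, 8 passed the filter of an FPKM of at least 1 in 3 of the 6 libraries. Those left out, such as Cox4i2, Cox6b2 and the testis forms Cox7b2 and Cox8c (both at 0), were nearly silent, and so was Ndufa4l2, another NDUFA4 relative, with means of 0.0363 to 0.121. Among the 8, 6 had a positive and 2 a negative log2 fold change with PBM, where 65.6% of all genes tested were positive. Their median was 0.13, which was 0.039 without M1 + PBM replicate 2 and 0.20 without M1 replicate 2. None met an unadjusted p of 0.05, with or without the block, and the lowest adjusted p was 0.900 (limma, Benjamini-Hochberg over all genes). Cox8a had means of 59.9 in M1 and 82.2 in M1 + PBM, and its log2 fold change was 0.36 (standard error 0.29). That mean was raised by M1 + PBM replicate 2, at 125.5 against 64.4 and 56.7 in the other libraries of the group. Cox6a1 was 72.2 and 76.8, and Cox7a2l was 48.3 and 46.3.

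Factors that build complex IV were tested in the same way, and 26 of 28 passed the filter. With PBM 22 of them had a positive and 4 a negative log2 fold change, where 65.6% of all genes tested were positive. Their median was 0.10, against 0.06 over all genes, and it was 0.064 without M1 replicate 3 and 0.042 with median-of-ratios scaling. In the fit without a block none met an unadjusted p of 0.05 (lowest adjusted p of 0.900, limma with Benjamini-Hochberg adjustment). For 3 genes, Cox20, Coa6 and Surf1, every M1 + PBM library lay above every M1 library, a share near the 8.51% of all genes, and these were picked out after their values were seen. With the replicate number as a block, 1 of the 26, the copper chaperone Cox17, had an unadjusted p of 0.044 in limma (log2 fold change -0.26, Benjamini-Hochberg adjusted p = 0.577), against 8.07% of all genes at 0.05 or less in that fit. The factor with the highest mean over the 9 libraries, Coa5, had means of 19.2 in M0, 59.2 in M1 and 59.3 in M1 + PBM. Coa3 had 19.9, 17.6 and 19.4, and Higd2a had 23.7, 11.6 and 12.7, so of these 3 only Coa5 was higher in M1. Timm21 had the lowest mean over the 9 libraries, with group means of 1.33, 0.597 and 0.812, although Cmc2 was lower in M1 (0.405) and M1 + PBM (0.611). Between M0 and M1 the 28 factors had a median log2 difference of -0.21, and 10 were lower and 3 higher in M1 without overlap, against 50.6% and 15.6% of all genes.

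**Figure D5:**
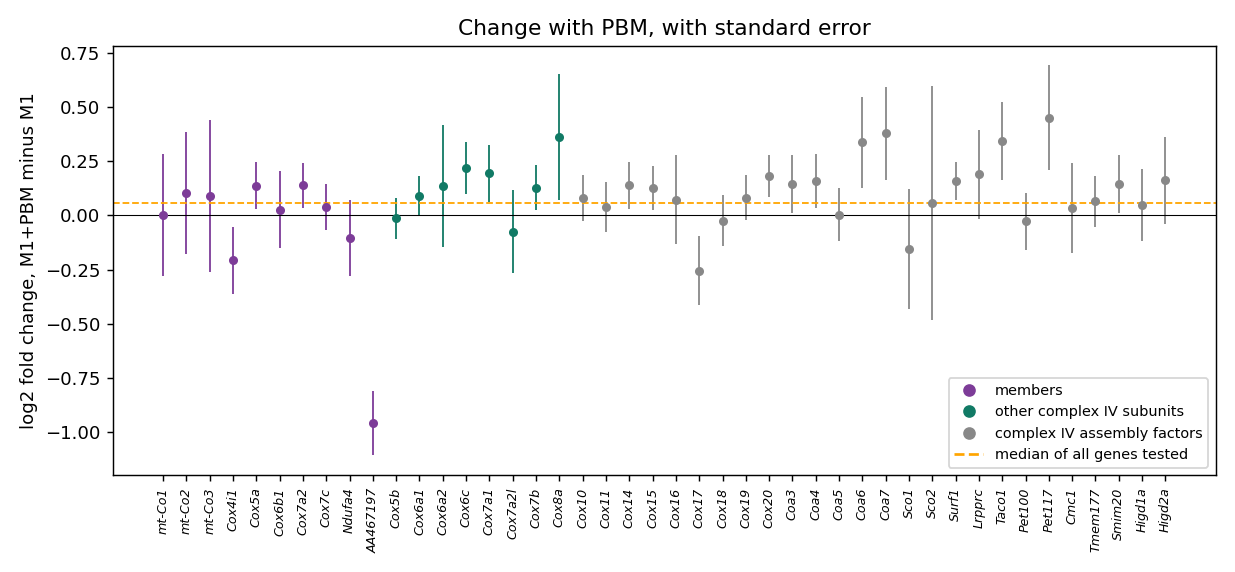
Log2 fold change of M1 + PBM against M1 with its standard error from limma for the 10 members, the 8 other complex IV subunits and the 26 assembly factors that passed the filter; the dashed line is the median of all 12238 genes tested, at 0.06. AA467197 at -0.96 is the lowest point.

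Genes for transcription of mitochondrial DNA and its nuclear regulators were also listed. Of 14, 12 were tested, and 10 had a positive and 2 a negative log2 fold change with PBM, where 65.6% of all genes tested were positive. The median was 0.10, and none met an unadjusted p of 0.05 in limma, with or without the block. The most abundant, Esrra, a nuclear receptor of mitochondrial genes, had means of 8.56 in M0, 17.4 in M1 and 16.1 in M1 + PBM. Pprc1 had 5.37, 4.98 and 6.01, Polg, the mitochondrial DNA polymerase, had 5.46, 3.13 and 3.39, and Ppargc1a was nearly absent with a highest group mean of 0.0158. Cycs, the cytochrome c that delivers electrons to complex IV, was 6.50 in M0, 14.9 in M1 and 12.9 in M1 + PBM. Its log2 difference between M1 and M0 was 1.12 without overlap, and with PBM it differed by -0.19 on the log2 scale (standard error 0.12).

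Promoters of 6 members (Cox5a, Cox6b1, Cox7a2, Cox7c, Ndufa4 and AA467197) could be read from RefSeq (GRCm38.p6), and the 250 bases before the start site were searched on both strands for 5 motifs. The κB consensus was present in 7.25% of all 32851 promoters of that length, the interferon-stimulated response core (a pair of GAAA separated by any 2 bases) in 2.98%, TTCNNNGAA (STAT sites) in 7.02%, the NRF1 palindrome (GCGCA, any base, then GCGC) in 3.74% and CCGGAAG (ETS factors) in 6.91%. These RefSeq starts differ from those of GENCODE M21, which places the start of AA467197 901 bases and that of Cox6b1 37 bases further upstream, so by GENCODE the window of AA467197 lies inside the gene. Among the 6 members a single match was found, a CCGGAAG on the opposite strand of Cox6b1 starting 28 bases before its RefSeq start site and thus within the gene as GENCODE draws it. It is shown in capitals within its 30-base window, chr7:30626124-30626153, read along the minus strand on which the gene lies.
Cox6b1: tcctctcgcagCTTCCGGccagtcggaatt
The window of AA467197 before its RefSeq start held none of the 5 motifs, and the bases before its GENCODE start were not searched.

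The genes whose levels followed AA467197 most closely were found by Pearson correlation of log2(FPKM + 1) over the 9 libraries, among 13915 genes. They were Gbp4, a guanylate-binding protein induced by interferon (r = 0.997), Gm36546 (0.997), Tnfrsf8, a TNF receptor family member (0.996), Map2k1, the kinase MEK1 (0.995) and Tmem67, a ciliary membrane protein (0.995). Gbp4 was 0.0270, 0.0220 and 0.182 in M0, 13.6, 15.9 and 23.7 in M1, and 11.1, 10.8 and 10.9 in M1 + PBM, the same order of groups as AA467197. Nearest to Ndufa4 were Eif4a1, a translation initiation helicase (0.975), Gm44250 (0.973) and Gm10036, a processed pseudogene (0.968). Ogfod3 (0.966) and Chchd6, a protein of the inner membrane folds of mitochondria (0.966), came next. All of these correlations share the same 3 groups and libraries, so they describe a common pattern across groups, with no p.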

How the data were processed

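FPKM values were deposited by the authors as 2 tables of 55655 rows, the first with the 3 M0 libraries and the other with the remaining 6. Strand-specific libraries were prepared from TRIzol RNA per the labels, and the methods name Cufflinks for expression values. The submitters' processing notes name Bowtie 0.12.2 and mm9. Annotation and filters were not given in the sources used here. Of the rows, 320 carried MSTRG identifiers instead of Ensembl ones, and whether the named tools and build gave the deposited values could not be checked. Symbols came from GENCODE M21 (GRCm38), which matched 55154 rows, and sequences from GENCODE M21 and RefSeq. The members and gene lists were chosen with earlier results of these data known.

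The comparison of M1 + PBM and M1 was made in limma 3.58.1 (R 4.3.3, eBayes with trend) on log2(FPKM + 1), which understates changes of low genes, over the 12238 rows that reached an FPKM of 1 in 3 or more of these 6 libraries. The fit was tested on simulated data. Differences against M0 used 13915 rows (an FPKM of 1 reached in 3 or more of 9) and no test, since the tables were made separately. No reads were recovered from the FPKM, as only 31.4% to 33.7% of low values were whole multiples of a step within 0.05, where even spread gives 10%. The fragment numbers therefore are estimates. Genes were named by a rule: the members, the 3 most and the least abundant gene of each pathway list, markers, and the 5 genes most correlated with AA467197 and with Ndufa4. Cox17, Cox20, Coa6, Surf1, Cmc2, Cox4i2, Cox6b2, Ndufa4l2 and Cycs were added after their values were seen.

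Replicate numbers are shared by the groups. An M1 library and the M1 + PBM library with its number deviated together from their group means (r over genes of 0.157, 0.469 and 0.462). Libraries with other numbers did so less (-0.491 to 0.0328), but deviations cancel within a group, which pushes these correlations apart. Libraries of the same number were therefore set side by side as a description only. The main limma fit, its calls and its standard errors left the replicate number out, and it entered only as a block in an alternative fit. Alternatives were a pseudocount of 0.1, other filters, median-of-ratios and quantile scaling, scaling without mitochondrial DNA rows, no trend, a replicate block and leaving out each library.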

Additional observations from a re-analysis of the deposited data

How the results depend on the processing

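Of 358 values under other processing settings, 336 moved by less than the spread between replicates or, for counts, by less than 1.5 times. Part of this count could not come out otherwise. Leaving out the trend or adding the block cannot change a fold change, and the other filters kept the members as they were. A change of sign could also fall within a wide spread. The median of the mitochondrial members did so, at 0.09 and at -0.24 without M1 replicate 3. Genes called with PBM by limma numbered 32 in the main fit and 75 with a pseudocount of 0.1. They numbered 27 to 89 with single libraries left out, where M1 replicate 2 left out gave 67 and M1 + PBM replicate 2 left out gave 89. With the replicate block they numbered 45, and genes at an unadjusted p of at most 0.05 (limma) rose from 543 to 988. In this balanced design a block leaves every fold change as it was, so it checks only the p-values. The median of the other complex IV subunits lay between 0.039 and 0.20 with single libraries left out, the lowest without M1 + PBM replicate 2. The M1 against M0 values depended on scaling. With median-of-ratios scaling the log2 differences were -0.066 for Ndufa4, -0.14 for the mitochondrial members' median and 0.31 for that of the nuclear members, which was -0.45 with quantile normalization. With a pseudocount of 0.1, M1 exceeded M0 by 7.19 for AA467197 and by 7.76 for its log2 ratio to Ndufa4. The cause of these shifts was not tested. Depth limits the M0 level of AA467197, which rests on few fragments.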
